A study of Mus musculus with 24 samples.

Results

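A set of 40 genes of adipocytes and lipid metabolism were followed in the aortas of 24 mice. They were the 40 listed genes whose symbol stood in the count table with a total above 0, out of 31774 such genes, and they were divided into 34 general adipocyte genes and 6 brown adipocyte genes (Ucp1, Cidea, Cox7a1, Ppargc1a, Dio2 and Elovl3). The mice formed 8 groups of 3 by sex, by genotype at Ppp3cb (wildtype, WT, or knockout, KO) and by treatment (control or angiotensin II, AngII). The product of Ppp3cb is one of the catalytic chains of calcineurin, a calcium-dependent phosphatase, and AngII is a peptide hormone that raises blood pressure. All mice were 5 months old and came from the B6,129S6-Ppp3cbtm1Jmk/J stock, whose allele is a constitutive targeted mutation. Treated mice received AngII from osmotic minipumps at 500 ng/kg/min for 4 weeks. Whether pumps were also implanted in the controls is not stated in the labels, nor how much of the surrounding fat was left on the aorta. Each library came from total RNA of 1 aorta after depletion of ribosomal RNA.

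The aorta is embedded in perivascular adipose tissue, which in the mouse thorax resembles brown fat. Adipocytes take up or synthesise fatty acids, store them as triglyceride in a droplet coated by perilipins, and release them again through lipases. Brown adipocytes burn fatty acids in their mitochondria and turn the energy into heat through the uncoupling protein Ucp1, a program in which the coactivator Ppargc1a (PGC-1 alpha) takes part.

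Library totals ran from 1523328 to 6352365 counts, and the 40 genes together held between 0.885% and 4.3% of the protein-coding counts of a mouse. Ppp3cb checked the labels as groups: its level was 28.1 to 69.4 CPM (lowest and highest, median 39.5) in 12 WT mice and 11.2 to 30.3 CPM (median 20.2) in 12 KO mice, a log2 difference of -1.01 ± 0.16 (SE, edgeR adjusted p = 0.000177). KO mice kept part of this RNA and the ranges overlapped, so the genotype of each single mouse was not checked. CPM is the count of a gene relative to its library total after TMM scaling. Myh11, the smooth muscle myosin, lay between 3636 and 9809 CPM in all mice, and Tagln and Cnn1, of the 10 smooth muscle markers, were at 0 in every library. Adipoq was at least 23.0 CPM in each. The 3 KO control female libraries were the smallest, with 1523328 to 2401264 counts, where the next had 2510551. Olfactory and vomeronasal receptor genes stood at 1893 and 1992 CPM of protein-coding counts in KO control females 3 and 1 and at 1002 in KO control female 2, which lay below KO AngII female 1 at 1073, the highest of the other libraries. WT control male 2 had the lowest levels of Fasn and Ucp1 and the highest sum of the 10 endothelial markers, 2040 CPM. No count was recorded on chromosomes 9, X, Y and MT, and none of the 40 genes lies there. On chromosome 8, 630 of 1749 genes were at 0, and the 4 genes of the set that lie there (Ucp1, Lpl, Retn and Slc27a1) all had counts. With such gaps, a gene at 0 in every library, such as Tagln or Cnn1, is not shown to be silent in the tissue.

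The promoters of 6 genes are shown as a description, and no result below depends on them. They are those of Ppargc1a, the one gene that differed with AngII, 2 further genes that share its half-site for cyclic AMP response element binding proteins (Dio2 and Pck1), and 3 of the genes that differed between the sexes (Elovl6, Acly and Hadhb). Each is the 250 bases before the RefSeq start on GRCm38.p6, 5′ to 3′ on the gene's strand. Capitals mark TGACGT on either strand in the first 3 and GGGCGG, the GC box, on either strand in the last 3.

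Ppargc1a, chr5:51567726-51567975, minus strand: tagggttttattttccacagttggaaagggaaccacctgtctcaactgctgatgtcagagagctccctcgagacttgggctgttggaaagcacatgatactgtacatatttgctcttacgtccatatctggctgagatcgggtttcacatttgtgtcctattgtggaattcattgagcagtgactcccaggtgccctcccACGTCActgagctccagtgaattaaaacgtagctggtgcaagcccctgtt
Dio2, chr12:90739039-90739288, minus strand: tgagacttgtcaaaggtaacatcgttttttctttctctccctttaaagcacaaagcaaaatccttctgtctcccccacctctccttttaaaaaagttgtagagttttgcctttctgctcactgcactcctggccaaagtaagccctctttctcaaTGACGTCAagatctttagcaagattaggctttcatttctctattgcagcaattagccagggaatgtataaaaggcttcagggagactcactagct
Pck1, chr2:173152823-173153072, plus strand: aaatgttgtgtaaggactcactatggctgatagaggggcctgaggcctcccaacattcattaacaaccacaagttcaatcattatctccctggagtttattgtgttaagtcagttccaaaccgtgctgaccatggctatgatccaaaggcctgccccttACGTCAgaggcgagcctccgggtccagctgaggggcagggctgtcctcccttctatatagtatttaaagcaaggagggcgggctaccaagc
Elovl6, chr3:129532136-129532385, plus strand: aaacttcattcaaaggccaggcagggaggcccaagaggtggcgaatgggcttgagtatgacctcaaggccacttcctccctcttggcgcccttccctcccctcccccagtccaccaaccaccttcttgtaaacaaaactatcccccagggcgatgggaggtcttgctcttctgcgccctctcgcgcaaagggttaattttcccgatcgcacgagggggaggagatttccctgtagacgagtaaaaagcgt
Acly, chr11:100528001-100528250, minus strand: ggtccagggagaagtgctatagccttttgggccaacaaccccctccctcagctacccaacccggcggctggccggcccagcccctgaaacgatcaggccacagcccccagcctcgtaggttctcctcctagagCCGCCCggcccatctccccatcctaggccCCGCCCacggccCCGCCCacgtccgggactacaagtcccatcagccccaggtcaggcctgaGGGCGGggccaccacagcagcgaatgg
Hadhb, chr5:30155003-30155252, plus strand: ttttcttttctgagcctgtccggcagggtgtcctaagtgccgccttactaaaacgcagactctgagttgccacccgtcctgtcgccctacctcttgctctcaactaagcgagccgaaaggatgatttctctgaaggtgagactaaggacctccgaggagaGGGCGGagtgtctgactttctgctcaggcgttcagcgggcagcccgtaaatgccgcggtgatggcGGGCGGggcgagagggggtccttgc

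RefSeq promoters were matched for 30 of the 40 genes, and not for Fabp4, Scd1, Gpd1, Lpl, Dgat1, Dgat2, Cpt1b, Cidea, Acaa2 and Elovl3. TGACGT stood on either strand in 3 of the 30 (Dio2, Pck1 and Ppargc1a) and in 6.47% of all 32851 promoter windows of this length. The full palindrome TGACGTCA, which contains that half-site, stood in Dio2 and in 1.55% of all windows. Some of the 30 genes had several windows, 39 in all. GGGCGG stood in 13 of the 30 genes, in 17 of their 39 windows and in 32.7% of all windows. It stood 4 times in the Acly window, 2 times in the Hadhb window and not in that of Elovl6. CCAAT, the NF-Y box, stood in 10 of the 30 genes, in 13 of their 39 windows and in 33.8% of all windows. The TATA box TATAAA was found in Acacb, Cebpa, Dio2 and Pparg and in 12.4% of all windows, the E-box CACGTG in Lipe and Slc27a1 and in 6.02%, and the C/EBP palindrome TTGCGCAA in Lep and in 0.164%. None of the 30 held the DR1 element of PPAR receptors in a strict or a looser form, the sterol element TCACNCCAC or the ERR element TCAAGGTCA, which stood in 0.0335%, 0.338%, 1.05% and 0.387% of all windows. These matches describe the letters of a short window, and their relation to the levels below was not tested.

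To compare genes, levels were divided by the joint length of all annotated exons of a gene, which can exceed the length of its transcript. For Fabp4 this length was 4489 bases, the whole gene from start to end, so the order is approximate. On this scale the lipid synthesis gene Scd1, the desaturase that makes monounsaturated fatty acids, led at 925 CPM per kb averaged over the 24 mice. The secreted protease Cfd (adipsin) followed at 255 and fatty acid synthase, Fasn, at 224 CPM per kb. The ATP citrate lyase Acly (90.5), the droplet coat protein Plin4 (87.9), the fatty acid binding protein Fabp4 (83.4), the fatty acid transporter Cd36 (80.7) and the brown fat droplet protein Cidea (77.5) formed the next rank. Ucp1 stood at 39.1 CPM per kb, close to the adiponectin gene Adipoq at 41.4. Leptin, Lep, was near the bottom at 0.952 CPM per kb and had 0 counts in 3 mice. Cpt1b, the muscle and brown fat form of the carnitine palmitoyltransferase, was lowest at 0.23 CPM per kb with 73 counts in all, 0 in 11 mice, and was the 1 gene of the 40 that did not pass the filter on low counts.

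**Figure D1:**
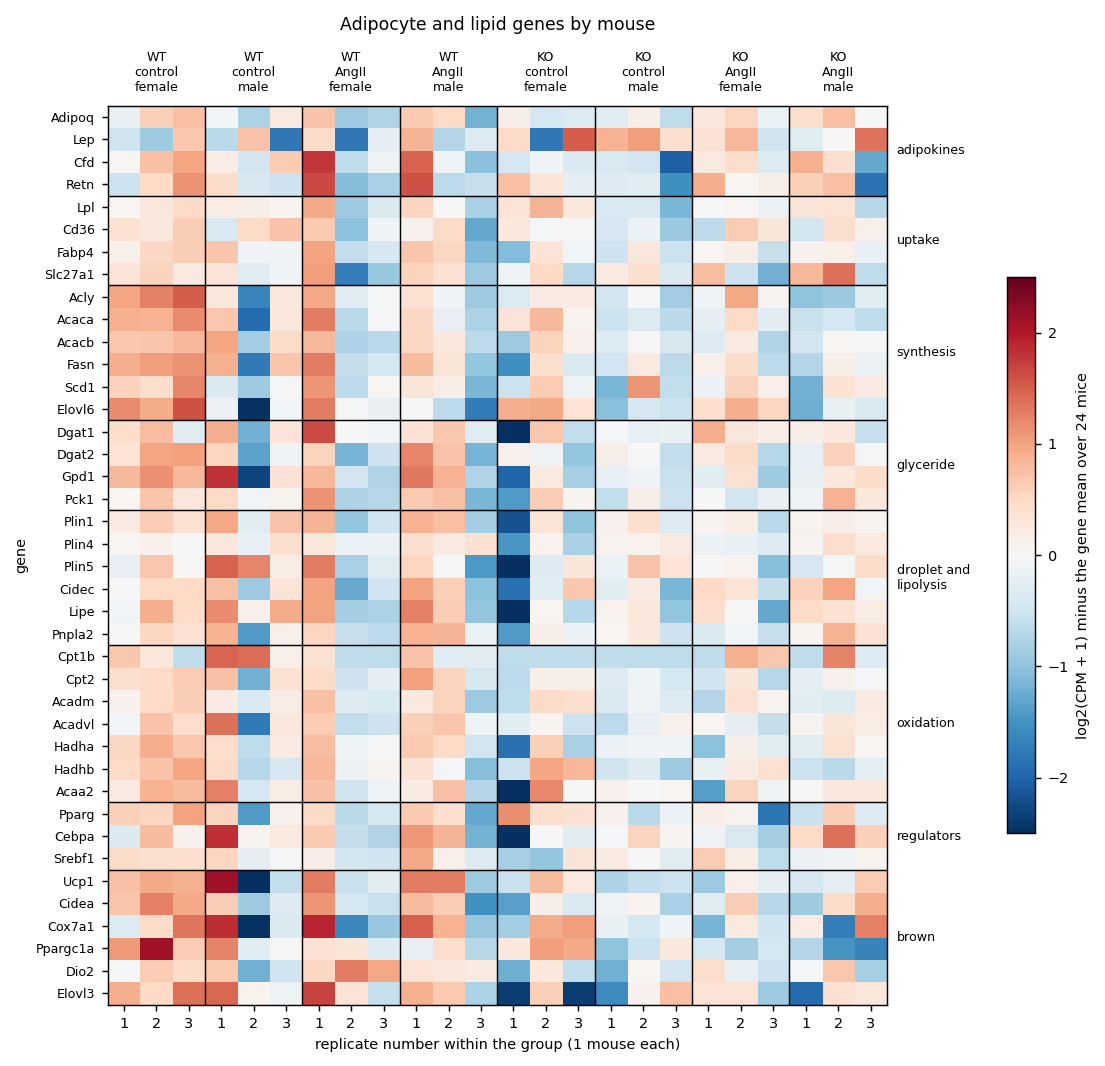
Each row is 1 of the 40 genes, grouped by role, and each column 1 mouse. Colour gives log2(CPM + 1) minus the mean of that gene over 24 mice, capped at 2.5 in either direction. Whole columns are red or blue, as in WT AngII female 1 (mostly above the mean) and KO control female 1 (mostly below it), and WT control male 2 is lowest for Ucp1 and Fasn.

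The spread between mice of a group was wide. The adipocyte hormone Adipoq ranged from 30.2 to 90.9 CPM (median 56.8) in the 6 WT control mice, from 23.0 to 88.1 (median 53.0) in WT AngII, from 34.0 to 59.2 (median 42.5) in KO control and from 47.2 to 90.4 (median 69.1) in KO AngII. The ranges of these sets of 6 mice overlapped throughout. Plin1, which coats the droplet and guards it from lipases, lay between 54.4 and 133 CPM in WT control, 34.0 and 123 in WT AngII, 14 and 88.8 in KO control, and 41.7 and 77.2 in KO AngII. The hormone-sensitive lipase Lipe ran from 40.3 to 98.5, 21.0 to 104, 5.73 to 52.0 and 16.9 to 59.4 CPM in the same order. Pparg, the master regulator of adipocyte differentiation, had set medians of 25.0, 17.4, 20.1 and 15.4 CPM, and its lowest and highest mice were 4.08 CPM in KO AngII and 38.8 CPM in KO control. Lep ran from 0 to 4.71, 0 to 5.22, 0 to 8.87 and 1.46 to 7.86 CPM in the same order of sets. Relative to its mean, Plin4 varied least over the 24 mice, with a coefficient of variation of 22.9%, and Cpt1b most, with 134%.

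Ucp1 spanned a wide range, from 2.59 CPM in WT control male 2 to 214 CPM in WT control male 1. In WT control females it was 82.1, 95.9 and 92.1 CPM, and the third WT control male had 32.4 CPM. WT AngII mice had 123, 33.3 and 40.6 CPM in females and 123, 123 and 25.6 CPM in males. The 3 WT control females lay close together, and the other 3 WT groups each held values far apart. KO mice showed a narrower span, 33.1, 85.6 and 58.7 CPM in control females, 28.3, 32.2 and 33.5 in control males, 25.6, 53.9 and 42 in AngII females and 35.9, 41.8 and 76.4 in AngII males. No KO mouse exceeded 85.6 CPM, while 6 of 12 WT mice did. Cidea behaved with less contrast, with medians of 119, 85.3, 64.0 and 82.0 CPM in WT control, WT AngII, KO control and KO AngII.

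The genes rose and fell together over mice. Of 741 pairs among the 39 genes that passed the filter, 702 correlated positively in log2 CPM over the 24 mice (median r = 0.507), and 721 did so after the group means were removed (median r = 0.567). Pairs share their library and depth, so these are descriptions. Pairs of genes outside the set were not counted, so the positive lean is not shown to be particular to the set. In 10 relations tested with Adipoq, Cfd was closest (Pearson r = 0.731, permutation p = 3e-05, adjusted 0.0003; Spearman rho = 0.78, permutation p = 3e-05, adjusted 0.0003; n = 24), and r was 0.709 without the 2 mice farthest from the Adipoq median. Fasn gave r = 0.626 and rho = 0.616 (permutation p = 0.00134 and 0.00161, adjusted 0.00335 and 0.00402), and r was 0.582 without those 2 mice. Ucp1 gave r = 0.482 and rho = 0.482 (permutation p = 0.013 and 0.0188, adjusted 0.0186 and 0.0269), and r was 0.461 without them. Lep did not follow Adipoq (r = 0.191 and rho = 0.127, permutation p = 0.371 and 0.552, adjusted 0.412 and 0.552, r = 0.0147 without the 2 mice), nor did Myh11 (r = -0.128 and rho = -0.228, permutation p = 0.551 and 0.283, adjusted 0.551 and 0.315, r = -0.0397 without them). The other 5 partners had r between 0.446 (Cox7a1, the heart and brown fat subunit of cytochrome oxidase) and 0.647 (Cidea), with adjusted permutation p of 0.0356 and 0.00335 for r and 0.0556 and 0.00367 for rho.

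Within sets of 6 mice r with Adipoq varied, and differences of r between sets were not tested. In WT AngII mice r was 0.995 for Ucp1, 0.961 for Fasn and 0.989 for Plin1. In KO control mice the same 3 values were -0.377, -0.242 and -0.334. Lipe (-0.272), Cidea (-0.159) and Cox7a1 (-0.633) were also negative there, while Cfd (0.493), Lep (0.301) and Lpl (0.238) were positive. Cfd and Lpl had positive values in each of the sets. KO control was the set in which KO control female 1 combined 59.2 CPM of Adipoq with 14 CPM of Plin1 and 5.73 CPM of Lipe. Over 12 females r for Fasn was 0.579 and over 12 males 0.685. For Ucp1 r was also negative within KO AngII, at -0.238. By the median of its correlations with the other genes, Lep stood apart (-0.0684), and Ppargc1a was next lowest among them at 0.237, with r = 0.0157 with Adipoq.

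**Figure D2:**
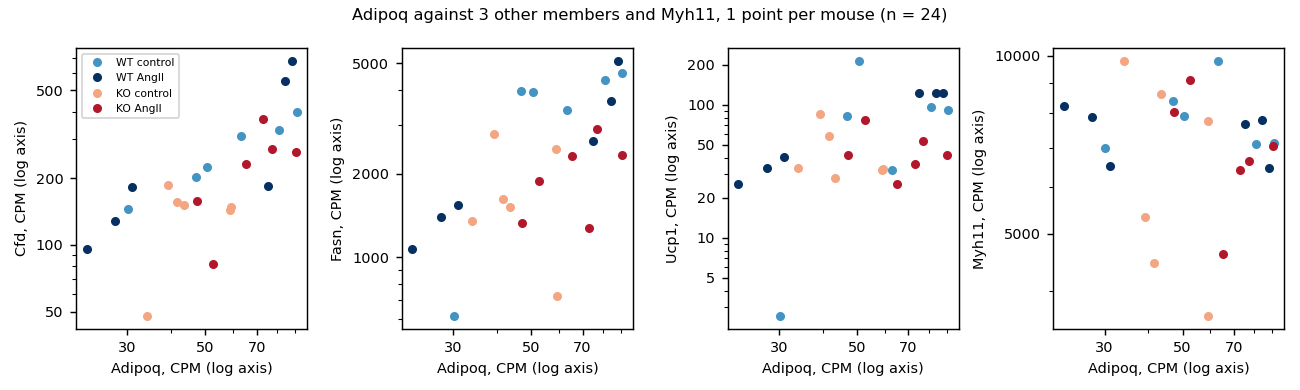
Each point is 1 of 24 mice, with Adipoq in CPM on the x axis and Cfd, Fasn, Ucp1 or Myh11 in CPM on the y axis, all on log axes and coloured by genotype and treatment. Cfd and Fasn rise with Adipoq (r = 0.731 and 0.626). Within the 6 KO control points Fasn shows no such rise (r = -0.242), and Myh11 shows no relation over all mice (r = -0.128).

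To ask what AngII did in mice with and without Ppp3cb, treated mice were compared with controls of the same genotype. In WT mice 0 of the 39 genes passed edgeR's quasi-likelihood test at an adjusted p under 0.05, where 34 of 16316 genes (0.208%) did. At an unadjusted p under 0.05, 1 of the 39 was lower, Ppargc1a, against 3.24% of all genes. DESeq2 called 0, and limma-voom called 1, Acacb. By p the first 5 were Ppargc1a (-0.95 ± 0.33, SE, edgeR adjusted p = 0.435), Acacb (-0.50 ± 0.28), Dio2 (0.50 ± 0.29), Acly (-0.48 ± 0.28) and Cd36 (-0.42 ± 0.27). The median log2 difference of the 39 was -0.18 against -0.01 over all genes, and 31 of them had a negative value. All 7 fatty acid synthesis genes, among them Acly and the acetyl-CoA carboxylase Acacb, had negative values (median -0.40), while 3 of the 4 secreted factors had positive ones. One mouse weighed on this: the 40 genes held 4.3% of protein-coding counts in WT AngII female 1 and 1.18% and 1.58% in the other 2 of its group. Without that mouse the median was -0.52, and without WT AngII male 3 it was 0.020.

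In KO mice 0 of 39 genes passed the test for AngII against control, as did 0 of all 16316 genes (0%). At an unadjusted p under 0.05, 1 of the 39 was lower (Ppargc1a) against 3.5% of all genes, and DESeq2 and limma-voom called 0 of the 39. The median of the 39 was 0.20 against 0.01 over all genes, with 27 positive values. By p the first 5 were Ppargc1a (-1.25 ± 0.35, edgeR adjusted p = 0.297), Cfd (0.74 ± 0.38), Adipoq (0.55 ± 0.29), the droplet fusion protein Cidec (0.59 ± 0.38) and Dio2 (0.44 ± 0.30). Without KO control female 1 the median was 0.042, and without KO control females 1 and 3 it was -0.059. The AngII response of KO minus that of WT was called for 0 of 39 genes, with 0 at an unadjusted p under 0.05 against 4.03% of all genes, 0 by DESeq2 and 0 by limma-voom, where 0 of 16316 genes (0%) passed. Its median was 0.35, and the first 5 by p were Cd36 (0.75 ± 0.38), Adipoq (0.67 ± 0.41), Lipe (0.88 ± 0.54), Gpd1 (0.90 ± 0.58) and the regulator Cebpa (0.86 ± 0.62). Without KO control females 1 and 3 that median was 0.14, and without WT AngII female 1 it was 0.76. The 2 AngII comparisons and the 2 knockout comparisons share mice with this difference of responses.

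Over both genotypes, 12 AngII mice against 12 controls, Ppargc1a fell and none of the other 38 genes passed, where 107 of 16316 genes (0.656%) did and 0.159% were lower. Ppargc1a lies at chr5:51454250-51567726 on the minus strand of mm10. Its level in WT controls was 31.9, 65.9 and 23.4 CPM in females and 36.1, 11.8 and 14.9 CPM in males, and in WT AngII mice it was 19.0, 18.3 and 11.6 CPM in females and 12.6, 20.3 and 8.63 CPM in males. All 3 WT control females lay above the 6 WT AngII mice, and the male groups overlapped. In KO controls it was 17.8, 31.3 and 29.4 CPM in females and 6.84, 9.81 and 17.7 CPM in males, against 10.6, 7.75 and 10.5 CPM in KO AngII females and 8.43, 4.63 and 3.93 CPM in KO AngII males. The female KO groups did not overlap, and the KO AngII males were the lowest group of the 8. All 6 KO AngII mice lay below all 6 WT control mice.

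The level of Ppargc1a was 24.7 ± 16.1 CPM in 12 control mice and 11.3 ± 5.38 CPM in 12 AngII mice (SD), a log2 difference of -1.10 ± 0.24 (SE, edgeR adjusted p = 0.0186), or -1.31, -0.59, -1.45 and -1.05 in WT females, WT males, KO females and KO males. The call was kept in 22 of 24 fits that each left out 1 mouse. It was lost without WT control female 2, the highest mouse (-0.95, edgeR adjusted p = 0.0741), and without KO control male 3 (-0.98, adjusted p = 0.0577). It was also lost without all 3 KO control females, at -0.999 and an adjusted p of 0.168, and in fits of a single sex, at -1.41 (adjusted p = 0.166) in females and -0.82 (0.631) in males. Of the other brown genes, the deiodinase Dio2, which activates thyroid hormone in brown fat, had 0.47 ± 0.21 (adjusted p = 0.407) and Ucp1 -0.04 ± 0.35. Pck1, which supplies glycerol for triglyceride, had 0.10 ± 0.22. Adipoq had 0.22 ± 0.20, and the median of the 39 was -0.0034. In bulk tissue, fewer cells of a type and less RNA per cell cannot be told apart.

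Markers of other cells moved with AngII too. All 10 adventitial fibroblast markers had positive differences (median 0.32), of which Col1a1 and Col3a1 passed, and their sum was 4246 to 8119 CPM in AngII against 2540 to 5714 CPM in control mice. Of 9 nerve and Schwann cell markers tested, 8 had negative differences and 2, Snap25 and Dbh, passed, and the list's sum was 14.7 to 72.8 CPM in AngII against 24.8 to 290 CPM in control mice, with 1 of its 10 genes at 0 in every library. Their part in the difference of Ppargc1a was not tested.

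**Figure D3:**
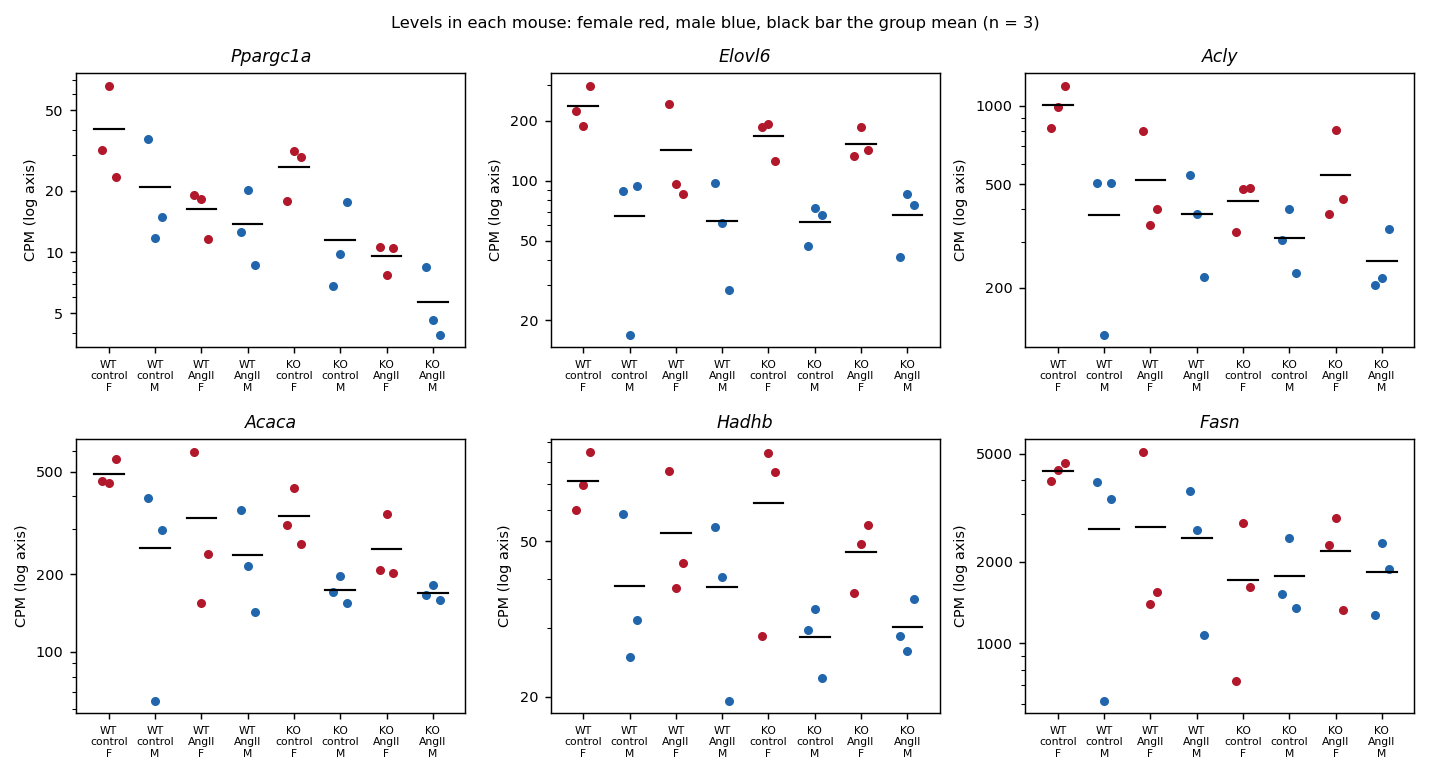
Levels in CPM on a log axis of the 5 genes that passed in any comparison and of Fasn, in 8 groups of 3 mice, with females in red, males in blue and a bar at the group mean. Ppargc1a is lower in AngII than in control groups of the same sex and genotype, and Elovl6 is lower in males than in females in each pair of groups, while Fasn overlaps between most groups.

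The knockout comparison asked whether loss of Ppp3cb shifted these genes before or during AngII. In control mice 0 of 39 genes passed, where 36 of 16316 (0.221%) did, but 38 of the 39 had negative KO minus WT values, with a median of -0.54 against -0.01 over all genes. At an unadjusted p under 0.05, 11 of the 39 were lower and 0 higher, against 4.22% of all genes lower. DESeq2 and limma-voom called 0. Gpd1, which makes glycerol phosphate, was 298, 375 and 303 CPM in WT control females and 596, 33.9 and 220 in WT control males, against 42, 200 and 95.3 in KO control females and 147, 160 and 116 in KO control males. In this comparison 5 of the 6 WT mice exceeded all 6 KO mice, and the exception was WT control male 2. The difference was -1.26 ± 0.41 (SE, edgeR adjusted p = 0.237).

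Next in order of p in that comparison came Lipe (-1.08 ± 0.38, adjusted p = 0.301), Acly (-0.76 ± 0.28, 0.334), Fasn (-0.96 ± 0.37, 0.364) and Cfd (-0.96 ± 0.38, 0.376). Fasn was 3976 to 4614 CPM in the 3 WT control females and 727 to 2783 CPM in the 3 KO control females, without overlap, and 616 to 3936 CPM against 1350 to 2454 CPM in males, with overlap. All role groups leaned the same way, from a median of -0.37 for the 4 secreted factors to -0.76 for the 6 brown genes, and Lep was the 1 gene with a positive value (1.10 ± 0.88). The count of calls hung on single libraries: it was 6 without KO control female 2 (Elovl3, Gpd1, Hadha, Lipe, Plin1 and Plin4), 1 without WT control male 2 (Gpd1) and 7 without a filter on low counts, all lower. The calls over all genes rose too, from 36 to 399, 59 and 260 in the same 3 fits. The sign was steadier than the calls, with 35 to 39 of the 39 negative and medians between -0.79 and -0.34 over 38 settings. The genes rose and fell together over mice and the settings refit largely the same mice. Neither the genes nor the settings are therefore independent observations.

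Markers of other tissues had the following values in control mice. All 8 smooth muscle markers tested had negative KO minus WT values (median -0.33, 0 called), with sums of 7541 to 11933 CPM in KO control females against 16144 to 17415 CPM in WT control females. In control males the sums overlapped, at 17951 to 21906 CPM in KO and 14563 to 22748 CPM in WT. All 10 macrophage markers had positive values (median 1.42, 0 called). The receptor genes and totals of the KO control females are given above. In a fit of males alone, 36 of 39 genes were negative with a median of -0.50 and 0 called. The part of the KO control female libraries in the values over both sexes was not tested.

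Under AngII 0 of 39 genes passed for KO minus WT, where 58 of 16316 (0.355%) did. There were 2 lower at an unadjusted p under 0.05 (Ppargc1a and Dio2) against 2.64% of all genes, and DESeq2 and limma-voom called 0. The general adipocyte genes had a median of -0.17 with 25 of 33 negative, and the brown genes a median of -0.75 with 6 of 6 negative. Ppargc1a had -1.04 ± 0.34 (edgeR adjusted p = 0.295), Dio2 -0.60 ± 0.29 (0.639) and Ucp1 -0.76 ± 0.49 (0.859), followed by Acaca (-0.44 ± 0.30) and Hadha (-0.41 ± 0.28), while Adipoq had 0.31 ± 0.29. The lean of all 39 (median -0.20) turned to 0.090 without WT AngII female 1, and was 0.051 in the limma-voom fit with quality weights.

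Over both treatments, 12 KO against 12 WT mice, 0 of 39 genes passed, where 219 of 16316 (1.34%) did, and 37 of the 39 were negative with a median of -0.42 against -0.01 over all genes. At an unadjusted p under 0.05, 13 of the 39 were lower, against 5.22% of all genes, DESeq2 called 1 (Ppargc1a) and limma-voom 0. The 6 brown genes had a median of -0.74 and the 33 general genes -0.29. Ppargc1a was 22.9 ± 15.9 CPM in WT and 13.2 ± 9.09 CPM in KO mice (SD, n = 12 each), a log2 difference of -0.89 ± 0.24 (SE, edgeR adjusted p = 0.0516). It passed in 9 of 24 fits that left out 1 mouse (adjusted p between 0.0176 and 0.132), for instance at -1.03 with 0.0202 without KO control male 3. Gpd1 had -0.81 ± 0.29 (adjusted p = 0.177), Dio2 -0.57 ± 0.21 (0.194), Acly -0.51 ± 0.20 (0.225) and Hadha, a subunit of the trifunctional enzyme of fatty acid oxidation, -0.51 ± 0.20 (0.239). The count of calls was 7 without KO control female 2, 5 without WT control male 2 and 10 without a filter on low counts, all lower, and the calls over all genes were 624, 326 and 559 in these fits.

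Of the skeletal muscle markers, Tcap was higher in KO mice. It passed (1.499 ± 0.22, edgeR adjusted p = 7.52e-05), and it averaged 59.8 CPM over the 24 mice, so it made up most of the sum of the list, which was 71.6 to 172 CPM in KO and 19.3 to 77.3 CPM in WT mice. The other 3 markers tested (Tnnt3, Myh1 and Myh2) averaged at most 3.32 CPM, had positive values and did not pass, and Ckm averaged 0.5 CPM. Acta1 was at 0 in every library, which does not show that it was silent, because parts of the genome had no counts. The part of these in the lower lipid gene values was not tested.

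Sex gave the most calls. Because X and Y held no counts, the sex labels could not be checked with genes of those chromosomes. All females also come before all males in the sample numbering, so sex and that order cannot be told apart. Over all 8 groups 5 of 39 genes were lower in males and 0 higher, where 298 of 16316 genes (1.83%) were lower, 562 (3.44%) higher and 860 (5.27%) either. Of the 5, 3 (Elovl6, Acly and Acaca) belong to the 7 fatty acid synthesis genes: Acly makes cytosolic acetyl-CoA, Acaca carboxylates it to malonyl-CoA, and Elovl6 lengthens the palmitate that Fasn makes. The rest of that list, Acacb, Fasn, Scd1 and Srebf1, did not pass. The other 2 of the 5 were Hadhb, a subunit of the trifunctional enzyme, and Ppargc1a.

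Elovl6, at chr3:129532355-129638495 on the plus strand, differed most. In WT control mice it was 225, 189 and 299 CPM in females and 89.0, 17.0 and 94.1 CPM in males, and in WT AngII mice 243, 95.8 and 85.9 CPM in females and 97.9, 61.7 and 28.5 CPM in males. The WT AngII sexes overlapped and the WT control sexes did not. In KO control mice it was 185, 191 and 125 CPM in females and 46.9, 73.2 and 67.3 CPM in males, and in KO AngII mice 133, 185 and 142 CPM in females and 41.4, 86.1 and 75.6 CPM in males. The sexes did not overlap in either KO set. The level was 175 ± 62.4 CPM in 12 females and 64.9 ± 26.4 CPM in 12 males (SD), a log2 difference of -1.40 ± 0.22 (SE, edgeR adjusted p = 0.000287). It passed in 24 of 24 fits that left out 1 mouse (-1.51 to -1.21) and in the 10 other settings that gave a value.

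Acly was 328 to 1197 CPM in females (median 479) and 132 to 544 CPM in males (median 319), with overlap. Its difference was -0.85 ± 0.20 (edgeR adjusted p = 0.00916), or -1.40, -0.43, -0.47 and -1.10 in WT control, WT AngII, KO control and KO AngII mice, and it passed in all 24 fits without 1 mouse. Hadhb was 28.7 to 84.8 CPM in females (median 57.6) and 19.6 to 58.9 CPM in males (median 30.5), again overlapping. It differed by -0.79 ± 0.19 (adjusted p = 0.0102) and passed in all 24 such fits. Hadha, which starts next to Hadhb on the opposite strand and encodes the partner subunit, had 0.0039 ± 0.20, and whether the 2 genes differ in this respect was not tested.

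Acaca and Ppargc1a passed less firmly. Acaca was 154 to 597 CPM in females (median 327) and 64.6 to 395 CPM in males (median 176), a difference of -0.74 ± 0.21 (edgeR adjusted p = 0.0369) that passed in 12 of 24 fits without 1 mouse, with adjusted p up to 0.119 (without WT AngII female 1, at -0.52). Ppargc1a was 7.75 to 65.9 CPM in females (median 18.7) and 3.93 to 36.1 CPM in males (median 10.8), a difference of -0.80 ± 0.24 (adjusted p = 0.0427) that passed in 6 of 24 such fits, with adjusted p up to 0.143 (without WT control female 2, at -0.62). Without all KO control females, Acly and Elovl6 passed and these 2 and Hadhb did not. All 5 genes had negative values in each of the 4 pairs of groups.

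The other lipid genes had values of both signs. All 6 genes of the droplet coat and of lipolysis had positive male minus female values (median 0.41), such as Plin4 (0.41 ± 0.14, edgeR adjusted p = 0.0735) and the triglyceride lipase Pnpla2 (0.40 ± 0.20, 0.266), and 0 passed. Plin4 passed as higher in males with DESeq2 and with limma-voom. Adipoq had -0.03 ± 0.20, Fasn -0.26 ± 0.26 and Ucp1 -0.06 ± 0.35, and the median of the 39 was -0.034 against -0.050 over all genes. Of 25 other lipid storage genes that are not in the set of 40, 22 were tested and 1 passed, Acss2, an acetyl-CoA synthetase, also lower in males (-0.79 ± 0.18, adjusted p = 0.00962). Among marker lists, all 8 smooth muscle markers tested were positive (median 0.41), 3 of them called (Acta2, Smtn and Actg2), with sums of 7541 to 20282 CPM in females and 14563 to 22965 CPM in males. Library totals were 1523328 to 4888759 counts in females and 3271095 to 6352365 in males. Ribosomal, small nuclear and miscellaneous RNA genes took 2.51% to 40.3% of the counts in females (median 17.8%) and 16.9% to 40.1% in males (median 32.2%). The part of these in the sex differences was not tested.

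**Figure D4:**
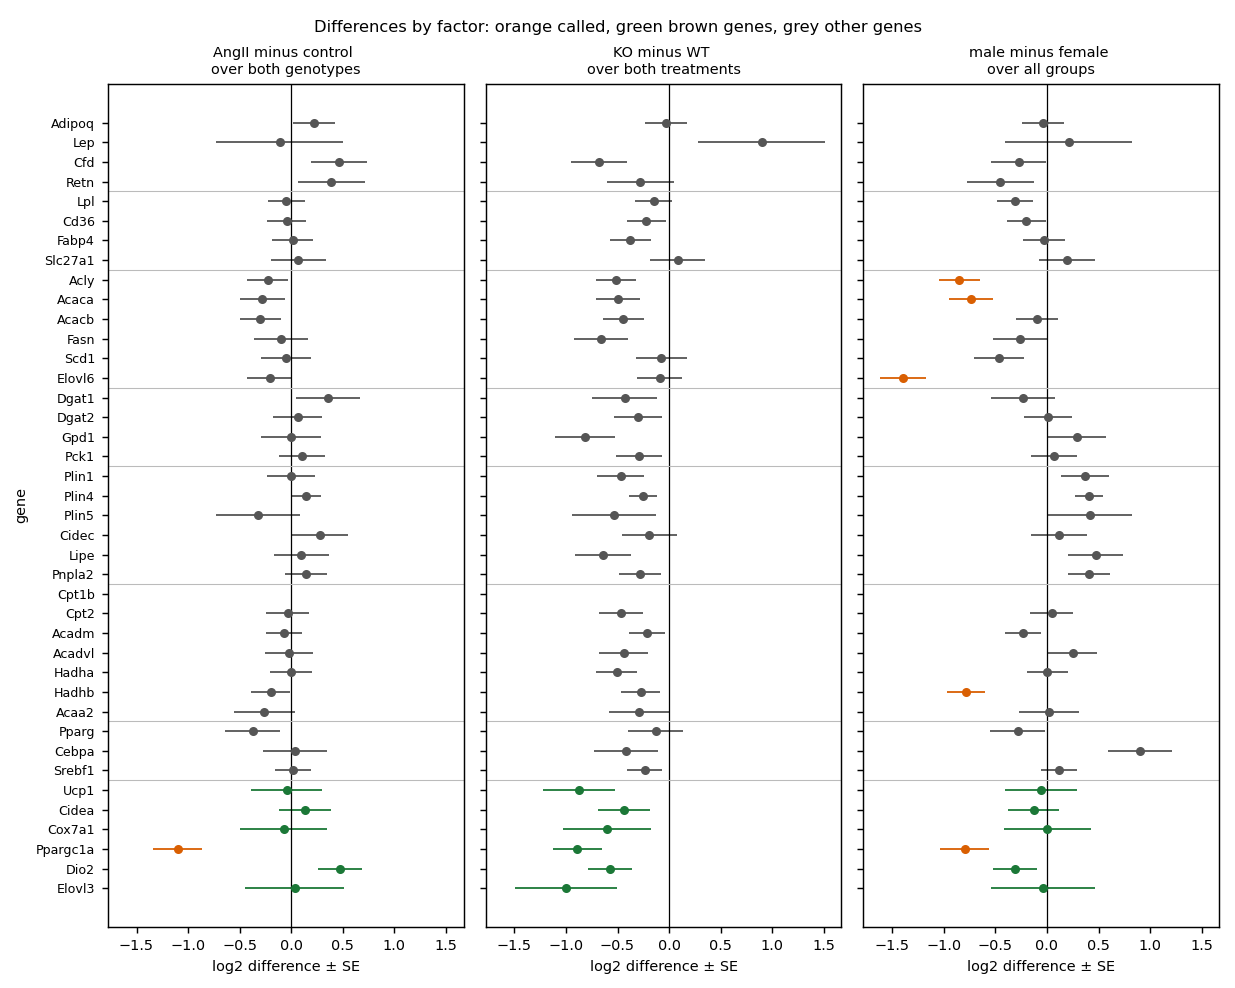
Each row is 1 gene, ordered by role, and each point its log2 difference with its standard error for AngII against control, KO against WT and male against female, each over 12 against 12 mice. Orange points passed edgeR's test, green points are brown genes that did not and grey points the other genes. In the KO panel 37 of 39 points lie left of 0 with none orange, and in the sex panel the 5 orange points lie left of 0.

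Neither the AngII response nor the KO difference was shown to depend on sex for any of the 39. Males minus females in the AngII response gave 0 calls (0 of 16316 genes, 0%), with 1 gene, Pparg, at an unadjusted p under 0.05 (1.18 ± 0.53), against 1.64% of all genes higher, and 0 by DESeq2 and limma-voom. Next by p came the acyltransferase Dgat2 (0.84 ± 0.47), the lipoprotein lipase Lpl (0.63 ± 0.35), Pnpla2 (0.69 ± 0.41) and Cpt2 (0.66 ± 0.42). In WT females 35 of 39 genes had negative AngII values (median -0.44), and in WT males 16 of 39 (median 0.059). For the KO difference the count was 0 of 39 (0% of all genes), 0 at an unadjusted p under 0.05 against 6.55% of all genes, and 0 by DESeq2 and limma-voom. By p the first 5 were Cidea (0.80 ± 0.50), Hadha (0.61 ± 0.40), Dio2 (0.62 ± 0.42), Scd1 (0.70 ± 0.49) and Plin4 (0.37 ± 0.27). KO minus WT values were negative for 37 of 39 genes in control females, 36 in control males, 31 in AngII females and 26 in AngII males, with medians of -0.64, -0.47, -0.22 and -0.22. These values are from the fit to all 24 libraries, not from fits of a single sex.

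Genes of the same pathways outside the set of 40 gave the following counts. They were measured in the same libraries and some genes are shared between lists, so these counts are not independent of each other or of the set. Of 13 other brown adipocyte genes tested, 12 had negative KO minus WT values over both treatments (median -0.35), as did 14 of 16 other fatty acid oxidation genes (median -0.29) and 19 of 22 other lipid storage genes (median -0.31), against a median of -0.01 over all genes, and 0 of each passed. Of 7 adipocyte progenitor markers 3 were negative (median 0.053) and 0 passed. For AngII over both genotypes 10 of 13, 11 of 16 and 14 of 22 were negative, with medians of -0.18, -0.035 and -0.066, and 0 passed.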

How the data were processed

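Raw counts per gene for 24 aorta libraries, 1 per mouse, were used as deposited. Per the submitters' processing notes, the authors used cutadapt 1.8.1, TopHat2 2.0.14, Bowtie2 2.2.5, mm10 and featureCounts 1.4.6; their settings and the strandedness of counting are not given in the sources used here. Counts were tested with edgeR 4.0.16 (R 4.3.3): TMM scaling, filterByExpr (minimum count 10, total 15; 16316 of 41128 genes kept), 8 group means fitted to all 24 libraries, quasi-likelihood F-tests, Benjamini-Hochberg adjustment over all genes tested and a threshold of 0.05. Standard errors are the size of the log2 difference divided by the root of F. All adjusted p are from this fit unless another tool is named. DESeq2 1.42.0, limma 3.58.1 (voom with quality weights), other filters, single sexes and leaving out mice were alternatives. Named genes were those called, or else the 5 with the smallest p in a comparison, plus 8 fixed genes and genes the results turn on. The members and all lists were chosen with earlier results of these data known. Correlations used 100000 permutations. Gene positions are from GENCODE M21 and promoters from RefSeq GRCm38.p6. The code was tested on simulated data. Pairs of libraries within a group were compared by chi-square, which was at least 7.34 per degree of freedom, so none was a copy. Pairs between groups were not compared. Replicate numbers did not pair the mice.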

Additional observations from a re-analysis of the deposited data

Results flagged for a closer look

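In 5 of 52 sets of 6 mice (1 gene in 1 genotype and treatment), a single mouse lay apart from the other 5 by Dixon's criterion, which chance meets in about 1 of 20 sets. KO AngII female 3 was lowest for Plin1 at 41.7 CPM, where the next mouse had 71.0 CPM, and lowest for Lipe at 16.9 CPM, next 43.6 CPM. WT control male 2 was lowest for Fasn at 616 CPM, next 3404 CPM. WT AngII female 1 was highest for Elovl6 at 243 CPM, next 97.9 CPM. KO AngII female 2 was highest for Acaca at 343 CPM, next 208 CPM.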

How the results depend on the processing

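Without a filter on low counts, 7 genes passed for KO minus WT in control mice (260 of all genes) and 10 over both treatments (559 of all genes). For AngII over both genotypes, 0 passed in females only, 0 in males only and 0 without KO control females, and 2 then passed for male minus female. With limma-voom 1 gene passed for AngII in WT, and with DESeq2 1 for KO minus WT over both treatments. Leaving out 1 mouse at a time gave 0 to 6 genes for KO minus WT in control, 0 to 7 over both treatments, 0 to 1 for AngII over both genotypes, 3 to 6 for male minus female and 0 elsewhere. The sex difference of the KO difference changed sign for Plin4 (-0.0055 without KO control females 1 and 3 and WT control male 2) and Scd1 (-0.14 with limma-voom). The cause was not tested. With the replicate block 4 genes passed for male minus female and 1 for AngII over both genotypes. Same-numbered mice did not deviate together (84 pairs, r between -0.102 and 0.132, 2 above 0.1), and 10 of 24 libraries correlated best with their own number. Fits without KO control females 1 and 3, or also without WT control male 2, were chosen after seeing the data. Fits of only the groups compared were not run for comparisons over all 8 groups, nor single-sex fits for sex comparisons. Genes of low count, such as Lep, are limited by depth.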
